A study of Homo sapiens with 5 samples.

Results

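TBXT, EOMES, MIXL1 and MESP1 are 4 transcription factors of the primitive streak, the strip of the early embryo through which cells leave the pluripotent epiblast to form mesoderm and endoderm. They were taken as every probe whose platform gene symbol was one of these names, which gave 5 of 47296 probes and 4 of 20041 named genes. TBXT (brachyury) had 2 probes and the other genes 1 each. The cells were H1, an established human embryonic stem cell line, and each of 5 conditions was read on 1 Illumina BeadChip. At day 2 these were E8, a defined medium for stem cells, E8 with 16 mM added pyruvate, E8 with BMP4, and E8 with BMP4 and 16 mM pyruvate, and the last mixture was also read at day 6. All cultures shared the E8 base and a Matrigel coating, the BMP4 dose is not given in the sources used here, and no array of E8 or of BMP4 alone at day 6 was analysed here. With 1 array a condition, no difference has a replicate error or a p-value, and a gene is called higher or lower by a rule of size alone.

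In mouse and human cells the streak is started by BMP, WNT and NODAL signals that reinforce each other, and FGF signals keep nascent mesoderm moving. TBXT is the classical T-box factor of nascent mesoderm and later of the notochord. EOMES is a second T-box factor, needed in the mouse for definitive endoderm and for the first cardiac mesoderm. MIXL1 is a homeodomain protein of the streak, and MESP1 is a basic helix-loop-helix factor that marks early cardiovascular mesoderm in the mouse.

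The start regions of the genes are shown because TBXT, MIXL1 and EOMES were high on the same arrays and these windows are where letters of the streak's signal mediators could be looked for. They are RefSeq windows of GRCh38.p14 from 250 bases before to 50 bases after an annotated start, found for 3 of the 4 genes, and each is printed 5′ to 3′ on the gene's strand. Capitals mark CTTTG (the core of the TCF/LEF site of WNT signalling), CAGAC (the SMAD box of BMP and NODAL signalling) and ATNCACA (the core of the FOXH1 site), searched on both strands. The TBXT window is chr6:166167802-166168101 (minus strand), the MIXL1 window chr1:226223414-226223713 (plus strand) and the EOMES window chr3:27722274-27722573 (minus strand).
TBXT: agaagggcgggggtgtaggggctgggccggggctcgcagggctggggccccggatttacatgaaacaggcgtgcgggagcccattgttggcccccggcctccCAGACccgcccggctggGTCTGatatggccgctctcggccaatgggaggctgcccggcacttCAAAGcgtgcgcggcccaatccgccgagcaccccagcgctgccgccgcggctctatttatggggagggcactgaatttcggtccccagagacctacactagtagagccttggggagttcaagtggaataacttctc
MIXL1: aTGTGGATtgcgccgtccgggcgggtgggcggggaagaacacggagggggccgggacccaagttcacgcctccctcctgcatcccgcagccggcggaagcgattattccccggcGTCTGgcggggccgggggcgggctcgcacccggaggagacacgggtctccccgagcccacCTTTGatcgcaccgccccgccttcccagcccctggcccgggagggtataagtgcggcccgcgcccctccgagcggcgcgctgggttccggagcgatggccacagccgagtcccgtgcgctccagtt
EOMES: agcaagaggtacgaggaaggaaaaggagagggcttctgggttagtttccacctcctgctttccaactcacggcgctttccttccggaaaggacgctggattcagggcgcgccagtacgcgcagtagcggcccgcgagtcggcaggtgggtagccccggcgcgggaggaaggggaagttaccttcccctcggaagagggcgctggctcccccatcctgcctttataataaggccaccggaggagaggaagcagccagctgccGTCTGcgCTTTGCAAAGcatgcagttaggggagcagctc

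Each of the 3 windows held at least 1 CTTTG and at least 1 CAGAC match. The first of these motifs was found at position -86 of TBXT, -76 of MIXL1 and 19 and 24 of EOMES, counted from the start as position 1 to the leftmost letter. CAGAC was found at positions -148 and -131 of TBXT, -136 of MIXL1 and 12 of EOMES. Both words are common, in 47.5% and 45.3% of all 35116 windows of the same length. ATNCACA, in 10.7% of windows, was found in MIXL1 alone, at its far end. The T-box core GGTGTGA (3.45% of windows) and the homeodomain core TAATTA (4.84%) were in none of the 3, and the E-box CANNTG (68.7%) was in TBXT once and in EOMES at 2 places. No match overlapped another. A second TBXT window, at a start farther upstream, held none of the 6 motifs and is not printed. These are matches of letters in short windows and not measured binding.

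Levels are given as log2 of the background-corrected and quantile-normalized signal. A probe is detected on an array where its detection p is under 0.01, and the lowest detected level lay between 5.51 and 5.91 on the 5 arrays, which detected 35.2% to 40.1% of probes. One array of day 2, BMP4 plus pyruvate, departed from its companions. Genes with a level 0.5 or more beyond 3 arrays that themselves differed by under 0.5 were counted among 9755 genes detected on the 4 arrays of day 2. For BMP4 plus pyruvate 430 genes were above and 596 below, and for the other arrays 38 to 84 were above and 37 to 82 below. It is the only array of its condition, so its values cannot be given without it, and the comparison of day 6 with E8 is the one with BMP4 plus pyruvate that does not use it.

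TBXT was read by a brighter and a dimmer probe. The raw intensity of the brighter probe was 156 in E8, 159 with pyruvate, 253 with BMP4, 2050 with BMP4 plus pyruvate at day 2 and 496 at day 6. The normalized levels were 4.88, 5.29, 7.46, 10.78 and 8.49 in the same order. TBXT was thus undetected without BMP4 and highest with BMP4 plus pyruvate at day 2.

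The dimmer TBXT probe had levels of 4.68 in E8, 4.60 with pyruvate, 5.03 with BMP4, 8.58 with BMP4 plus pyruvate at day 2 and 5.37 at day 6. It was detected on 1 array only, BMP4 plus pyruvate at day 2, so both probes put their highest level there. TBXT transcript with BMP4 alone and at day 6 therefore rests on the brighter probe. 

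EOMES was detected on the 3 arrays with BMP4. Its raw intensity was 165 in E8, 157 with pyruvate, 2145 with BMP4, 6899 with BMP4 plus pyruvate at day 2 and 8866 at day 6. The normalized levels were 5.11, 5.24, 11.30, 12.66 and 13.07. Both arrays without BMP4 left EOMES undetected, and the 3 with BMP4 ordered it as BMP4 alone, then the mixture at day 2, then the mixture at day 6.

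MIXL1 followed an order close to that of TBXT. Its raw intensity was 153 in E8, 156 with pyruvate, 194 with BMP4, 1154 with BMP4 plus pyruvate at day 2 and 575 at day 6. The normalized levels were 4.83, 5.20, 6.60, 9.82 and 8.78. With BMP4 alone MIXL1 was dim, above the lowest detected level by under 1, and the mixture at day 2 was again the highest array.

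MESP1 departed from the other 3 genes in E8 and with BMP4 alone. Its raw intensity was 214 in E8, 169 with pyruvate, 160 with BMP4, 297 with BMP4 plus pyruvate at day 2 and 967 at day 6. The normalized levels were 6.18, 5.64, 5.64, 7.11 and 9.68. MESP1 was detected in E8, where the other 3 were not, and was undetected with BMP4 alone, where the other 3 were detected. At a looser detection p of 0.05 MESP1 would be detected on all 5 arrays. Its highest level was at day 6, as that of EOMES was.

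**Figure D1:**
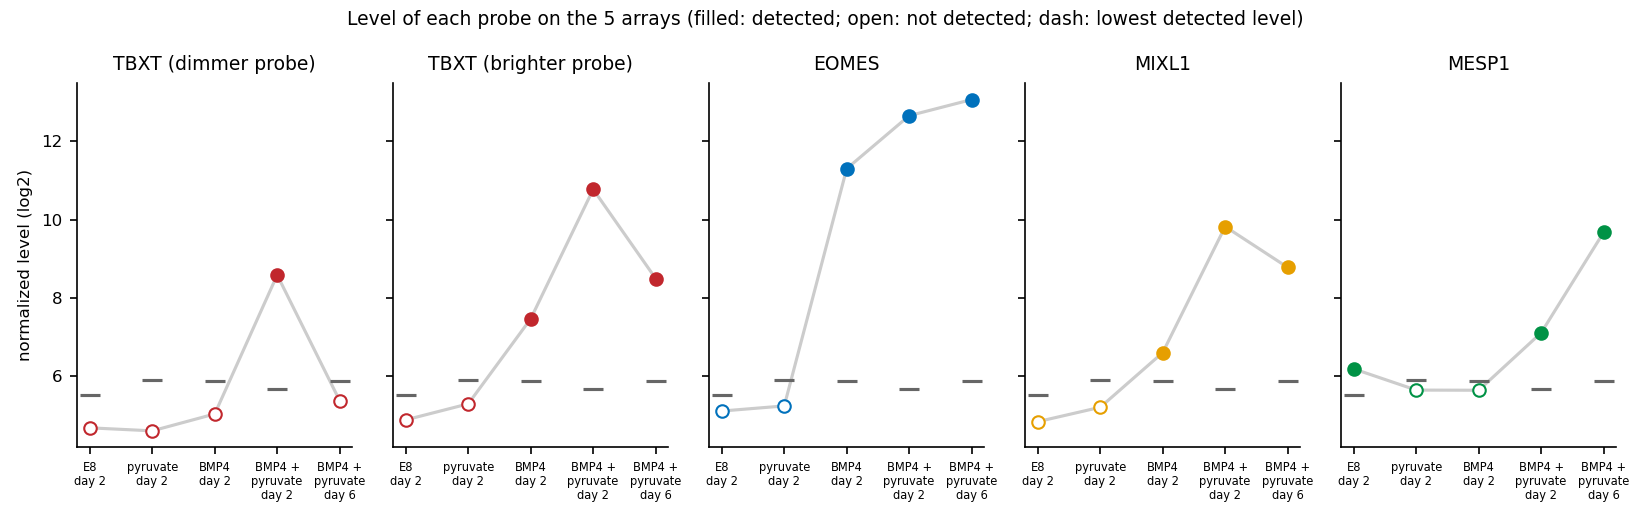
Normalized level (log2, y axis) of the 5 probes of the 4 genes on the 5 arrays (x axis), 1 array a condition with no error bars. Filled points are detected, open points are not, the dash is the lowest detected level of any probe on that array, and grey lines only join the points of a probe. TBXT and MIXL1 peak with BMP4 plus pyruvate at day 2, at 10.78 and 9.82, while EOMES and MESP1 are highest at day 6, at 13.07 and 9.68.

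A gene is called higher or lower where its level differed by 2-fold or more (1 in log2) and its brighter array detected it. Where the dimmer array did not, the fold is a bound ("at least"), taken against the lowest detected level of that array or the level of the gene itself, whichever was larger. The rule was applied to the difference itself, so a gene could pass it with a bound under 2-fold. There is no bound where the brighter level was itself below the lowest detected level of the dimmer array. Genes of both kinds are named beside their list's count. In cultures of mixed cells, more cells with a transcript and more transcript per cell cannot be told apart.

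With pyruvate alone the streak factors stayed at or near background. Against E8, 0 of the 4 genes were higher and 0 lower, in a comparison where 1.04% of 11504 detected genes were higher and 1.32% lower. TBXT, EOMES and MIXL1 were undetected on both arrays, so no difference is given for them. MESP1, detected in E8, was at least 1.21-fold lower with pyruvate, short of the size rule.

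BMP4 alone went with 3 of the 4 genes higher than in E8 and 0 lower, where 2.68% of 11582 genes were higher and 2.51% lower. EOMES was at least 55.4-fold higher, TBXT at least 3.86-fold and MIXL1 at least 2.12-fold. All 3 were undetected in E8, so these bounds do not order the genes by size. MESP1 was at least 1.23-fold lower, again short of the size rule. Without background correction EOMES alone passed, with TBXT at 0.95 and MIXL1 at 0.55 in log2.

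Adding pyruvate to BMP4 went with all 4 genes higher than with BMP4 alone, where 3.71% of 11230 genes were higher and 3.05% lower. TBXT differed by 3.31 in log2 and MIXL1 by 3.22, in places 3 and 5 of the 10114 genes detected on both arrays. EOMES differed by 1.36, in place 75. MESP1, undetected with BMP4 alone, was at least 2.34-fold higher, and without background correction it did not pass (0.55). The dimmer TBXT probe was at least 6.51-fold higher. Differences between 2 probes of the same gene spread more here (SD 0.546 over 2461 genes) than for BMP4 against E8 (0.323 over 2475 genes), and the part of the array that stands apart in the differences was not tested. No member was detected on all 4 arrays of day 2, so no departure from additivity is given.

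With pyruvate on both sides, BMP4 plus pyruvate against pyruvate had all 4 genes higher, where 6.45% of 11309 genes were higher and 5.76% lower. All 4 were undetected with pyruvate, so each difference is a bound. EOMES was at least 108-fold higher, TBXT at least 29.3-fold and MIXL1 at least 15.1-fold. For MESP1 the bound was 2.30-fold. Without background correction MESP1 did not pass (0.54). This comparison shares the BMP4 plus pyruvate array with the one before it.

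Between day 2 and day 6 of BMP4 plus pyruvate the 4 genes parted. TBXT and MIXL1 were lower at day 6, MESP1 was higher and EOMES was neither, where 13.5% of 11661 genes were higher and 13% lower. TBXT differed by -2.28, and its dimmer probe, undetected at day 6, was at least 6.58-fold lower. MIXL1 differed by -1.04, close to the size rule, and with scaling to the 75th percentile, an offset of 50 or no background correction it did not pass (-0.91, -0.99 and -0.85). MESP1 was 5.94-fold higher, while EOMES differed by 0.41.

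Against E8 at day 2, all 4 genes were higher at day 6, where 12.4% of 12018 genes were higher and 12.3% lower. EOMES was at least 188-fold higher, MIXL1 at least 9.62-fold and TBXT at least 7.89-fold. MESP1, detected on both arrays, was 11.3-fold higher. Treatment and day differ together here and cannot be told apart.

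**Figure D2:**
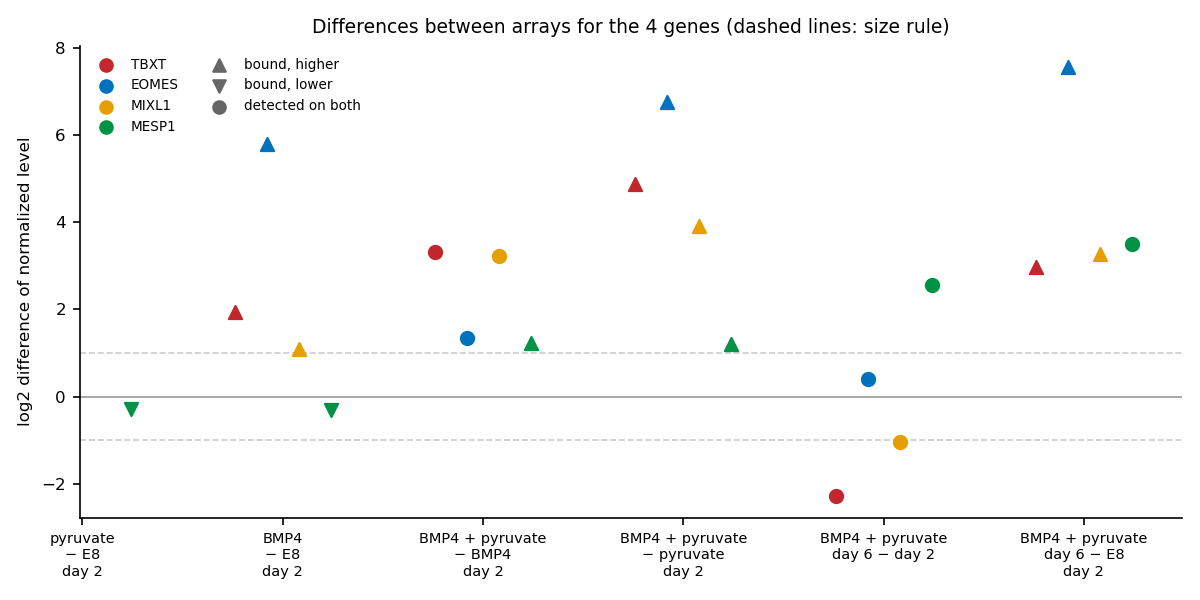
Log2 difference (y axis) of the 4 genes in the 6 comparisons (x axis, first array minus second), from 1 array a condition. Circles are measured differences, triangles are bounds for genes undetected on the dimmer array, genes undetected on both are left out, and dashed lines mark the size rule. TBXT and MIXL1 lie at 3.31 and 3.22 for pyruvate added to BMP4 and at -2.28 and -1.04 for day 6 against day 2.

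The likeness of patterns over the 5 arrays was measured by Pearson's r of the normalized level, as a description of 5 points that share a normalization, with undetected levels taken as read. It was set among 1428 genes detected on at least 1 array and spanning 2 or more in log2. TBXT and MIXL1 were the closest pair of the 4, with r of 0.977, and each was in the first 8 of the other's 1427 neighbours. EOMES had r of 0.902 with TBXT and 0.909 with MIXL1. MESP1 had r of 0.496 with TBXT, 0.624 with EOMES and 0.665 with MIXL1, where it took places 309, 329 and 260 in order of r.

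The 5 genes closest to TBXT were SFTA1P, TAGLN (transgelin, an actin-binding protein of smooth muscle), FILIP1L, PHLDA1 and PLSCR1, with r from 0.980 to 0.999. Those closest to MIXL1 were ACADL (a fatty acid dehydrogenase of mitochondria), TENM4, the ephrin receptor EPHA2, FILIP1L and BHLHE40, with r from 0.985 to 0.999. FILIP1L stood in both lists. EOMES was closest to MSX2, a homeobox gene that responds to BMP, to the collagens COL11A1 and COL9A2, to LINC02076 and to ENPEP, an aminopeptidase, with r from 0.990 to 0.996. MESP1 was closest to COL1A1 (a collagen of connective tissue), MARCHF11, RFPL2, VIM (vimentin, an intermediate filament of mesenchymal cells) and CALCR, with r from 0.995 to 0.999. High r is common over 5 arrays, and 61 to 374 genes reached 0.9 or more with each of the 4.

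**Figure D3:**
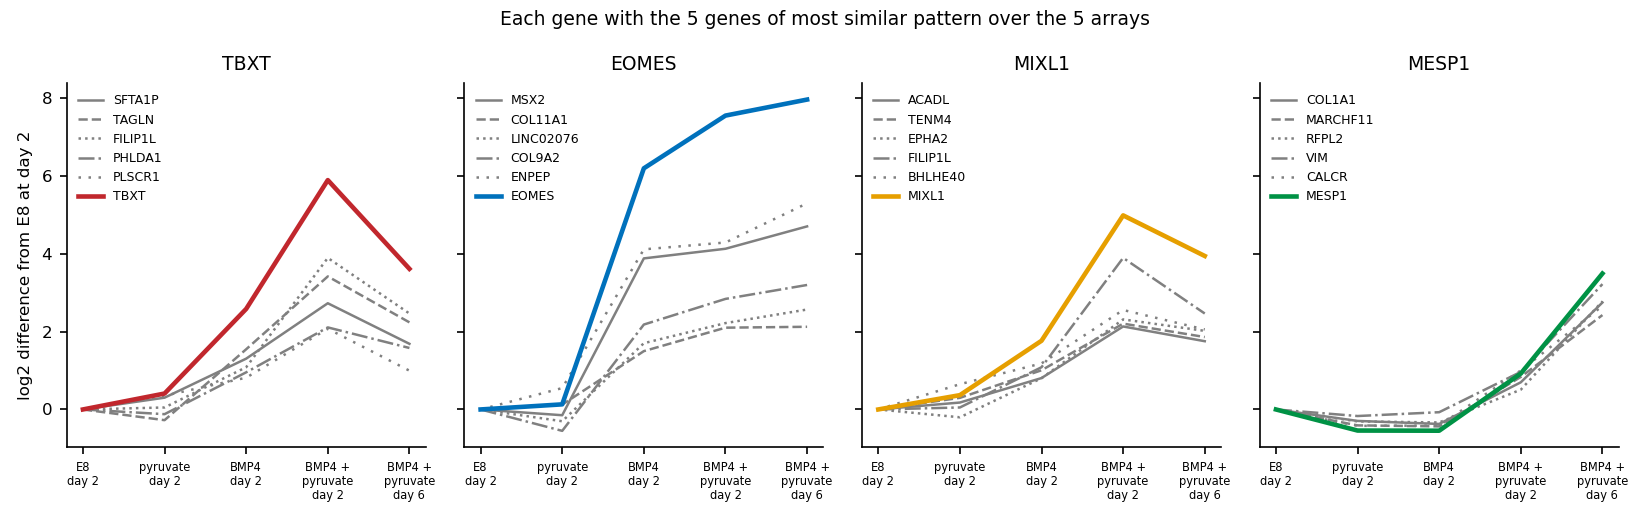
Normalized level of each of the 4 genes (coloured) and of the 5 genes with the highest Pearson r to it over 5 arrays (grey), as log2 difference from E8 at day 2 (y axis) on each array (x axis). The panels of TBXT and MIXL1 are highest with BMP4 plus pyruvate at day 2 (10.78 and 9.82 as levels), and those of EOMES and MESP1 at day 6 (13.07 and 9.68).

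Genes next to the 4 on the chromosome, taken as the nearest protein-coding gene with a named probe on each side, were added after the other values were seen. Of the 8 neighbours, PDE10A, PRR18, WDR93 and MESP2 were undetected on all 5 arrays, so they could not pass the size rule. SLC4A7, CMC1, ACBD3 and LIN9 were detected on all 5. In the first 5 comparisons 0 of these 4 detected neighbours passed, where 1.04% to 13.5% of all detected genes were higher. The share of all genes that were lower was 1.32% to 13%. At day 6 against E8, 1 of the 4 detected neighbours passed, ACBD3 beside MIXL1, by 1.12, where 12.4% of all detected genes were higher. MESP2, the close relative and neighbour of MESP1, was undetected on all 5 arrays, with levels of 4.54 to 5.64. PDE10A and PRR18, beside TBXT, were undetected throughout, while SLC4A7 and CMC1, beside EOMES, were detected throughout.

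The other genes of the pathway come first as ligands. Of 15 ligands and co-receptors of the NODAL, WNT, FGF and BMP families, 14 had a probe. With pyruvate alone 4 of 7 detected were higher than in E8 and 0 lower (median 1.04, beside 0 over all genes). Of all genes, 1.04% were higher there and 1.32% lower. GDF3 and WNT3 passed close to the size rule, each at 1.04. NODAL, the ligand that patterns the streak, had levels of 9.47 in E8, 10.73 with pyruvate, 10.18 with BMP4, 11.85 with BMP4 plus pyruvate and 8.24 at day 6. WNT3, which is needed for the streak in the mouse, had 5.64, 6.68, 8.31, 9.97 and 8.41. Both were detected in E8, as MESP1 was and the other 3 factors were not, and both were higher with pyruvate alone, where 0 of the 4 factors were. WNT3 was dim in E8, where the lowest detected level was 5.51, and was close to the size rule with pyruvate. NODAL and WNT3 were both highest on the array where TBXT and MIXL1 were.

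FGF8, which mesoderm needs to leave the streak in the mouse, was 2.73-fold higher with pyruvate in E8 and 2.68-fold higher with pyruvate in BMP4, from levels of 6.55 and 6.65. BMP4 alone, against E8, had 1 of 7 ligands higher (WNT3, 6.40-fold) and 1 lower (WNT5A, 2.93-fold), beside 2.68% and 2.51% of all genes. The median difference of the 7 was 0.09. Pyruvate added to BMP4 had 6 of 8 higher and 0 lower (3.71% and 3.05% of all genes), with a median of 1.63 beside -0.02. They were NODAL, WNT3, WNT5B (3.80-fold), BMP2 (at least 3.36-fold), FGF8 and FGF17. Against pyruvate, BMP4 plus pyruvate had 4 of 8 higher, among them WNT3 (9.80-fold), and 0 lower (6.45% and 5.76% of all genes). At day 6 against day 2, 6 of 10 were higher and 3 lower (13.5% and 13% of all genes). WNT5A (14.1-fold) and BMP2 (12.8-fold) were among the higher, and NODAL (12.3-fold), GDF3 (8.80-fold) and WNT3 were the lower, as TBXT and MIXL1 were. Against E8, day 6 had 7 of 10 higher and 2 lower (12.4% and 12.3% of all genes).

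**Figure D4:**
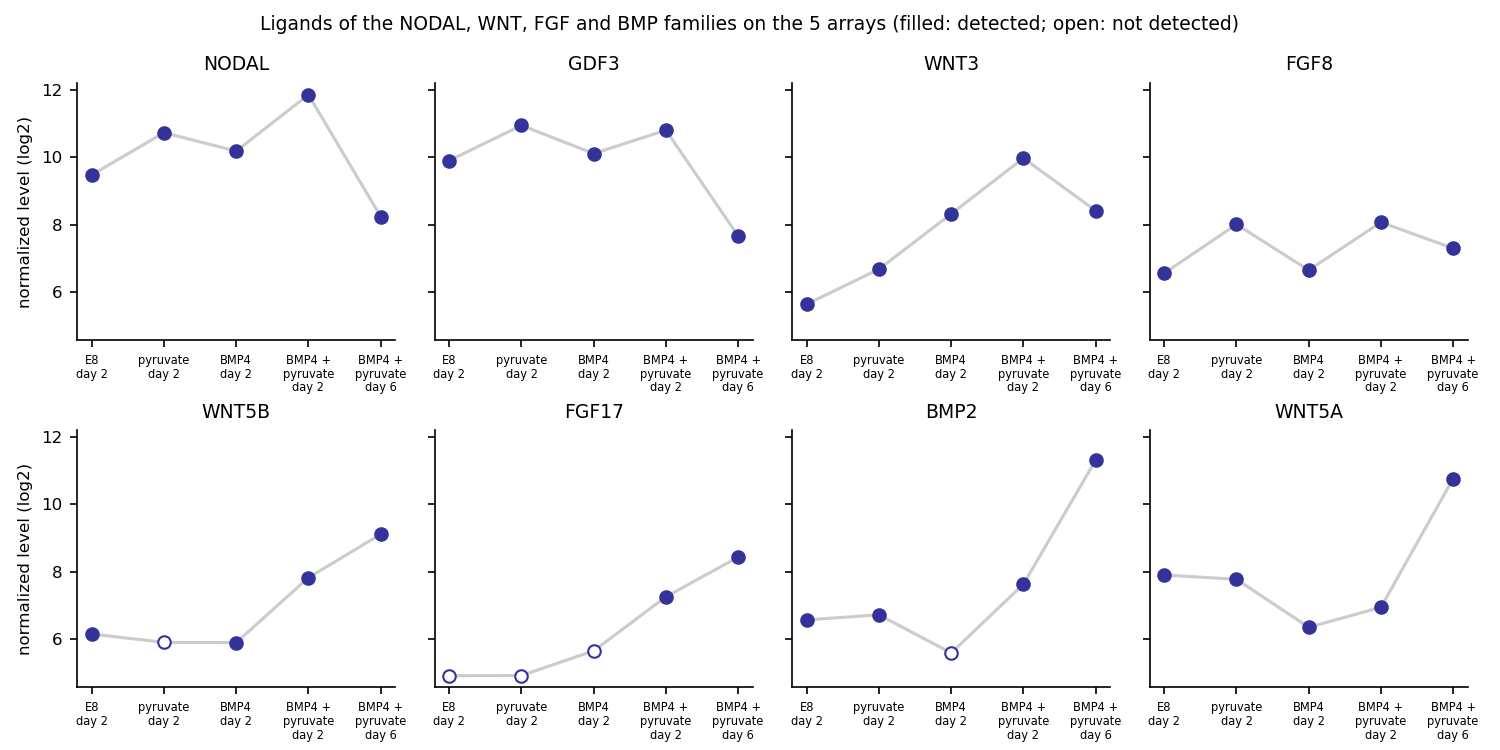
Normalized level (log2, y axis) of 8 ligands on the 5 arrays (x axis), 1 array a condition with no error bars. Filled points are detected and open points are not, and lines only join the points of a gene. NODAL and WNT3 peak with BMP4 plus pyruvate at day 2, at 11.85 and 9.97, and BMP2 and WNT5A at day 6, at 11.31 and 10.76.

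Of 14 receptors for these ligands with a probe, 0 of 13 detected were higher and 1 lower with pyruvate alone, where 1.04% and 1.32% of all genes were. The 1 lower was FGFR2, with no bound, as its level of 5.84 in E8 was below the lowest detected level with pyruvate, 5.91. With BMP4 alone 0 of 13 passed (2.68% and 2.51% of all genes), and with pyruvate added to BMP4 0 of 11 (3.71% and 3.05%). BMPR2 (2.01-fold) was the 1 of 11 higher with BMP4 in pyruvate (6.45% of all genes), and 0 were lower. Between day 2 and day 6, ACVR2A and FZD7 (7.39-fold) were higher and FZD5 (5.65-fold) and FGFR1 lower of 11, FGFR1 with a bound of 1.46-fold. Of all genes, 13.5% were higher there and 13% lower. Against E8, 4 of 13 were higher and 4 lower (12.4% and 12.3% of all genes), FGFR2 among the lower and again with no bound.

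Among 10 intracellular mediators with a probe, 9 were detected on every array and SMAD1 on none. LEF1, the WNT mediator that is itself a WNT target, had levels of 5.87 in E8, 5.96 with pyruvate, 6.35 with BMP4, 8.20 with BMP4 plus pyruvate and 11.89 at day 6. It was the 1 of 9 that passed when pyruvate was added to BMP4 (3.60-fold higher), where 3.71% of all genes were higher. LEF1 was also the 1 of 9 that passed, as higher, when BMP4 was added to pyruvate (6.45% of all genes). With pyruvate alone (1.04% of all genes higher and 1.32% lower) and with BMP4 alone (2.68% and 2.51%) 0 of 9 passed. By day 6, against day 2, SMAD3 and LEF1 were higher and TCF7L1, a repressor of WNT targets, was lower of 9. Of all genes, 13.5% were higher there and 13% lower. Against E8, day 6 had LEF1 higher and TCF7L1 lower of 9 (12.4% and 12.3% of all genes). FOXH1, the NODAL partner of SMAD proteins, was detected on all 5 arrays.

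Secreted inhibitors and feedback genes were mixed. The counts of this list and of those below stand beside the shares of all genes given above for each comparison. With pyruvate alone LEFTY1 and LEFTY2 were higher and SFRP1 lower of 12 detected, with a median of 0.26. BMP4 alone had CER1, BAMBI and SMAD6 higher and SFRP1 and FRZB, both WNT inhibitors, lower. With pyruvate added to BMP4, CER1 (5.38-fold), an inhibitor of NODAL, BMP and WNT, and NKD1 (at least 4.47-fold) were higher of 12. SFRP1 was lower, and the median was 0.04 beside -0.02 (-0.02 over the 9 detected on both arrays). AXIN2, a feedback gene and WNT target detected on both arrays, differed by 0.09 and did not pass. Against pyruvate 5 were higher, 1 of them (NOTUM) with a bound under 2-fold, and 3 lower of 12. From day 2 to day 6, 9 of 14 were higher and 2 lower (13.5% and 13% of all genes). The WNT inhibitors DKK1 (at least 33.4-fold) and DKK4 led the higher ones. Against E8, 8 of 14 were higher and 2 lower (12.4% and 12.3% of all genes).

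Other transcription factors of the streak and early mesoderm were mostly undetected at day 2. Of 14 with a probe, 1 was detected in E8, 0 with pyruvate, 1 with BMP4, 4 with BMP4 plus pyruvate and 8 at day 6, whereas the 4 factors above were detected as 1, 0, 3, 4 and 4. SP5, a WNT target, had levels of 4.55, 4.65 and 4.96 on the first 3 arrays and 10.24 and 10.47 with BMP4 plus pyruvate at day 2 and day 6. It was on the same side as TBXT when pyruvate was added to BMP4, at least 20.6-fold higher, but kept its level at day 6. TWIST1 (at least 3.79-fold), a mesenchymal factor, CDX1 (at least 1.43-fold) and CDX2 (at least 1.10-fold) were also higher there, both with bounds under 2-fold, and FOXC2 lower (at least 2.11-fold), of 5 detected. GSC, TBX6, MSGN1, MESP2 and EVX1, further genes of the streak and of presomitic mesoderm, were undetected on all 5 arrays.

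With pyruvate alone the 1 detected gene of this list, FOXC2, was lower than in E8 (at least 1.98-fold), with BMP4 alone it was neither, and BMP4 plus pyruvate against pyruvate had 4 of 4 higher, again with CDX1 and CDX2 under 2-fold as bounds. At day 6 against day 2, 7 of 9 were higher and 1 lower (CDX1, at least 1.44-fold). LHX1 (at least 39.8-fold), SNAI2 (at least 29.6-fold), which represses cadherin, and FOXA2 (at least 18.5-fold), of endoderm, led them. Against E8, day 6 had 7 of 8 higher and 0 lower. A gene detected on 1 side of a comparison could differ in 1 direction only, so these counts are a description.

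Genes that lie downstream of the 4 factors in the mouse or in human cells were detected in larger number at day 6. Of 25, 6 were detected in E8, 6 with pyruvate, 6 with BMP4, 12 with BMP4 plus pyruvate at day 2 and 19 at day 6. With pyruvate alone 1 of 6 was higher (FGF8) and 0 lower, and with BMP4 alone HAND1 and KDR were higher and DLL3 lower of 7. With pyruvate added to BMP4, 5 of 12 were higher and 1 lower (median difference 0.46), but over the 6 detected on both arrays the median was -0.29. GATA6 and APLNR passed with bounds under 2-fold, also against pyruvate. SOX17 (at least 2.74-fold), an endoderm factor that EOMES activates, and GATA6 (at least 1.33-fold) were among the higher, and DLL1 (2.81-fold) was the lower. Against pyruvate 5 of 12 were higher and 3 lower.

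At day 6 against day 2, 15 of 20 downstream genes were higher, RIPPLY2 and NKX2-5 with bounds under 2-fold, and 0 lower (13.5% and 13% of all genes). Their median difference was 1.83, beside -0.01 over all detected genes. The apelin receptor APLNR (84.0-fold), a gene of nascent and cardiac mesoderm, and HAND1 (16.9-fold), a factor of lateral and extraembryonic mesoderm, were among them. HAND1 differed by 1.01-fold when pyruvate was added to BMP4, unlike each of the 4 factors. Against E8, 16 of 19 were higher, the same 2 and ETV2 with bounds under 2-fold, and 2 lower (12.4% and 12.3% of all genes). TBX6, MSGN1 and HES7, genes of presomitic mesoderm, were undetected at day 6, as were MEF2C and TBX20.

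Relatives of the factors were mostly undetected. Of 16 T-box and MESP genes, 3 to 6 were detected per array. TBX3 was higher with BMP4 (2.37-fold) and with BMP4 in pyruvate, and it and TBX2 were higher at day 6 against day 2 and against E8. When pyruvate was added to BMP4 the 1 of 6 that passed was TBX22, whose bound was only 1.31-fold, where 3.71% of all genes were higher. With pyruvate alone 0 of 4 passed (1.04% and 1.32% of all genes). TBR1, of the same T-box subfamily as EOMES, was undetected on all 5 arrays. TBX21, also of that subfamily, was detected on all 5, at levels of 6.01 to 6.64.

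The labelled cell type was checked against its markers. All 9 pluripotency markers with a probe were detected on the 4 arrays of day 2 and 6 at day 6, where NANOG, SOX2 and PRDM14 were undetected and POU5F1 was at 7.63 against 12.67 at day 2. Lateral and cardiac mesoderm markers were detected as 2 of 8 on each of E8, pyruvate and BMP4. The 2 were PDGFRA and KDR in E8 and with pyruvate, but HAND1 and KDR with BMP4. HAND1 was at least 20.5-fold higher with BMP4 than in E8. With BMP4 plus pyruvate 3 of 8 were detected at day 2 and 7 at day 6. Trophoblast or amnion markers were detected as 2 of 11 without BMP4, 4 of 11 on both arrays of day 2 with BMP4 and 7 of 11 at day 6. CGA, CGB5, KRT7 and ELF5 were undetected on all 5. With BMP4 against E8, TFAP2A and GATA2 were higher, GABRP was lower (3.64-fold) and TFAP2C was neither. Definitive endoderm markers were detected as 1 of 8 in E8, 2 with pyruvate, 2 with BMP4, 4 with the mixture and 6 at day 6. Neuroectoderm markers were detected as 5 of 8 in E8, 4 with pyruvate, 3 with BMP4, 4 with the mixture and 3 at day 6. PAX6 and SOX1 were undetected on every array. LHX2 was detected at day 6 only (8.58), and OTX2 was higher at day 6 (9.40) than with the mixture at day 2 (6.68).

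TFAP2A, of trophoblast and amnion, was at 11.39 with BMP4, 11.19 with BMP4 plus pyruvate and 11.26 at day 6, so it did not share the difference of TBXT and MIXL1 between the first 2 of these. When pyruvate was added to BMP4, SOX2 (4.14-fold lower) was the 1 of 9 pluripotency markers that passed. The median of the 9 was -0.40, beside -0.02 over all genes. Only POU5F1 (0.30) and ZFP42 (0.11) were on the higher side, and the others were on the lower side, among them DPPA4 (-0.79) and LIN28A (-0.75). Of the neuroectoderm markers 1 of 4 detected was higher, POU3F1 with a bound of 1.26-fold, and 0 were lower. Of the endoderm markers 3 of 4 detected were higher there, SOX17, CER1 and GATA6, the last with a bound of 1.33-fold. HHEX differed by -0.59, and FOXA2, CXCR4, FOXA1 and GSC were undetected on both arrays. The summed linear level of the endoderm markers was 452 to 507 on the first 3 arrays, 1044 with BMP4 plus pyruvate at day 2 and 3994 at day 6. CER1, also counted among the inhibitors, was the largest term with BMP4 plus pyruvate at day 2 (level 9.09) and at day 6 (10.56). The part of these cell types in the levels of the 4 factors was not tested.

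**Figure D5:**
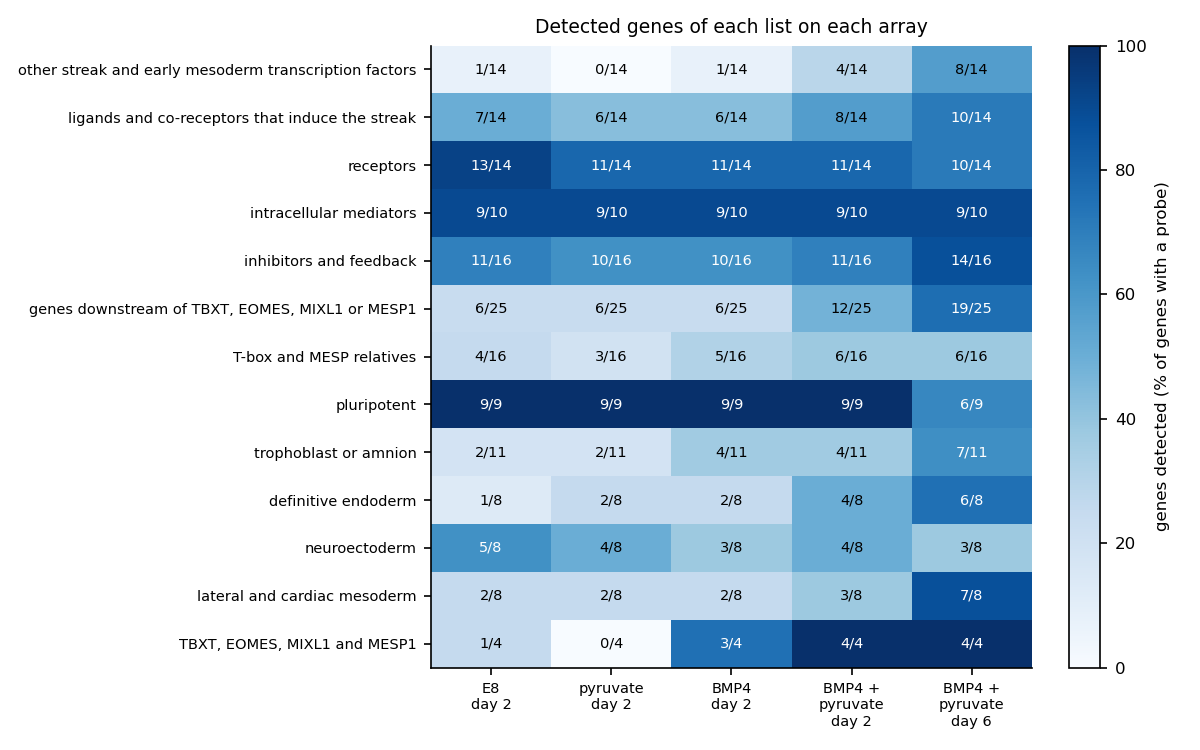
Number of genes detected out of those with a probe (in the cells) for each gene list (y axis) on each array (x axis), shaded by the percent detected. The 4 factors go from 1 of 4 in E8 to 4 of 4 with BMP4 plus pyruvate, the downstream genes from 6 of 25 to 19 of 25 at day 6, and the pluripotency markers from 9 of 9 to 6 of 9.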

How the data were processed

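Total RNA of 5 cultures was measured on Illumina BeadChips, 1 per condition, grouped by the treatment in the labels. The authors deposited a non-normalized intensity and a detection p-value per probe and array, per the file headers, and also deposited a table of log2 values whose making is not given in the sources used here. From the values, the deposited log2 table had nearly equal medians (5.58 on each array), so it was read as normalized between arrays and used as an alternative only. The labels state neither scanner software nor genome build.

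Intensities were corrected with neqc of limma 3.58.1 (R 4.3.3), which takes the background from the detection p-values and then applies an offset of 16, quantile normalization and log2. Quantile normalization hides a change in total RNA, and the offset shrinks differences of dim probes. Probes were named from the platform annotation (30105 with 1 symbol, 8 with several, 17183 with none), and for several probes the one with the highest mean was used. A gene was detected if any of its probes was (12441 on at least 1 array). No test was made, since no condition has a replicate. The steps were tested on simulated data. The 4 genes, the lists (99 of 103 genes with a probe) and the 8 alternatives were chosen with earlier results of these data known. Named genes were the 4 genes, up to 4 genes of each list with the largest difference in a comparison, and the 5 genes most like each of the 4. Others named, such as members that were undetected, were chosen after the values were seen. Columns of other samples were not found (0).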

Additional observations from a re-analysis of the deposited data

Results flagged for a closer look

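As read, the MESP1 difference had opposite signs under the same contrast, with 1 array on each side, and this difference was not tested. The pyruvate difference was -0.54 in log2 without BMP4 and 1.47 with it. The BMP4 difference was -0.55 without pyruvate and 1.47 with it. MESP1 was detected in E8 and with BMP4 plus pyruvate but not with pyruvate or BMP4 alone, so each of these values has 1 undetected side, and both negative values fall short of the size rule. As bounds the negative values are only 1.21-fold and 1.23-fold lower, so the change of sign rests on small values near the lowest detected level. Both pairs of values come from the same 4 arrays and describe the same departure from additivity, for which no value is given above.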

How the results depend on the processing

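Alternatives in 8 settings were run on each comparison. Without background correction 1 gene (EOMES) in place of 3 was higher with BMP4 against E8, with TBXT at 0.95 and MIXL1 at 0.55, and MESP1 fell short of the size rule when pyruvate was added to BMP4 (0.55) and when BMP4 was added to pyruvate (0.54). This setting leaves the background in the signal, which shrinks differences of dim probes. At day 6 against day 2 the count of genes lower was 1 (TBXT) in place of 2 without background correction, with an offset of 50 and with scaling to the 75th percentile, as MIXL1 was near the size rule.

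The other counts of genes higher or lower stayed within 1.5 times, and no difference of a gene detected in its comparison reversed in sign. For pyruvate added to BMP4, TBXT ranged from 2.57 to 3.43, MIXL1 from 2.13 to 3.22, EOMES from 1.09 to 1.40 and MESP1 from 0.55 to 1.47. With scaling, the all-gene median was -0.14 in that comparison, with 33.7% of calls higher in place of 54.9%, -0.18 for BMP4 plus pyruvate against pyruvate (37.1% in place of 52.8%) and 0.11 at day 6 against day 2. The split was 63.3% in place of 44.1% for pyruvate against E8 and 67.0% in place of 51.6% for BMP4 against E8, where no background correction gave 69.2%. Calls over all genes differed by more than 1.5 times in several settings. For pyruvate added to BMP4, 417 higher and 343 lower became 79 and 52 without background correction, 186 and 162 with an offset of 50, 255 and 206 with the deposited log2 values and 1401 and 1353 at 1.5-fold. For BMP4 against E8, 310 and 291 became 92 and 41, 169 and 114, 217 and 181, and 742 and 993 in the same order. For pyruvate against E8, 120 and 152 became 8 and 10, 28 and 43, 53 and 80, and 595 and 818. For BMP4 plus pyruvate against pyruvate, 729 and 651 became 241 and 148 without background correction, 445 and 359 with an offset of 50 and 1753 and 1903 at 1.5-fold. Without background correction day 6 had 712 and 572 against day 2 (in place of 1571 and 1511) and 725 and 577 against E8 (in place of 1494 and 1475). No paired analysis was possible because each condition has 1 array.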
